A study of Mus musculus with 6 samples.

Results

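The growth hormone, IGF1 and SOCS2 axis was examined in mouse liver as 10 genes chosen by name from the 23284 genes of the count files. They are the growth hormone receptor gene Ghr, the signal transducer genes Stat5a and Stat5b, the feedback genes Socs2 and Cish, the hormone gene Igf1, its partner gene Igfals, and the binding protein genes Igfbp1, Igfbp2 and Igfbp4. All 10 had a row in each of the 6 libraries, and all 10 passed the filter on low counts. The libraries came from livers of 8-week-old C57BL/6 mice that had fasted overnight. The 3 mice of the vehicle group received vehicle, and the 3 mice of the FGF19 group received FGF19 at 1 mg/kg, and both groups stayed without food for the 6 h of treatment. FGF19 is the human counterpart of mouse FGF15, a gut hormone that is released after a meal and acts on the liver, so a human protein was given to mice. The study's methods describe its mice as male. The comparison asks how the transcripts of this axis differed between the 2 groups.

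In the liver, pituitary growth hormone binds its receptor, which activates the kinase JAK2, and JAK2 phosphorylates the transcription factors STAT5A and STAT5B. STAT5B then switches on Igf1, Igfals and the genes of 2 inhibitors, SOCS2 and CIS (from Cish), which damp the receptor's signal. IGF1 travels in blood bound to IGF binding proteins, and the protein of Igfals (the acid-labile subunit) holds IGF1 and its main carrier in a large, stable complex. Fasting is known to make the liver resistant to growth hormone and to raise Igfbp1, a binding protein that insulin represses.

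STAT factors bind a palindrome that is written TTCNNNGAA and reads the same on both strands, and 3 of the 15 RefSeq promoter windows of these genes held it. The windows cover 250 bases before and 50 bases after each annotated start, and 9 of the 10 genes had an entry; Socs2 was the gene without one. The matches lay in Cish and Igfals, and 8.30% of all 32851 windows held at least 1 match. A second motif, CAAAACA on either strand, is part of the element through which insulin represses Igfbp1, and it occurred in the window of Igfbp1 and in 6.28% of all windows. The stretches are shown because the first pair of genes were among those that fell and Igfbp1 was called only when 1 of the FGF19 libraries was left out. They are RefSeq sequences of GRCm38.p6, and each was placed by an exact match on its chromosome of mm9, the build of the count files. All lie on the + strand, are written 5′ to 3′, and have the motif in capitals.
Cish, chr9:107198985-107199014, around the annotated start: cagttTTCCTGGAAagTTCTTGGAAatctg
Igfals, chr17:25014539-25014578, before the first of 3 annotated starts: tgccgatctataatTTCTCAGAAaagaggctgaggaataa
Igfals, chr17:25014926-25015175, before the second start: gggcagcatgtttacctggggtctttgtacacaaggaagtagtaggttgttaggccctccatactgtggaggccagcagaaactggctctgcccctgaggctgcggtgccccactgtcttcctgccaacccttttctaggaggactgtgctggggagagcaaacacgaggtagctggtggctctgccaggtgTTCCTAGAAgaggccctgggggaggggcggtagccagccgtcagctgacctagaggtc
Igfbp1, chr11:7097640-7097789, directly before its start: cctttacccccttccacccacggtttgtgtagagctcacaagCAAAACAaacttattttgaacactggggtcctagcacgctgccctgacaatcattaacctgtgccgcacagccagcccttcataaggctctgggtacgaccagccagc
In Cish the 2 matches begin at bases 1 and 12 from the RefSeq start, and the gene's first exon in the count files begins downstream of both, at 107199020. In Igfals they begin 236 and 58 bases before the first and second starts, and the window of the third start held no match. The first exon of Igfals in the count files begins downstream of both matches, at 25015715. The motif of Igfbp1 begins 108 bases before its start. A match is a description of the letters and was not tested as a binding site.

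The total counts of the 6 libraries lay between 18994654 and 22920056, and no pair differed by less than sampling noise. Levels are CPM, the reads of a gene relative to the library's total, after TMM scaling for differences in library make-up. The groups were compared by the quasi-likelihood test of edgeR, p-values were adjusted by Benjamini and Hochberg's method over the 12559 genes that passed the filter, and a gene was called at an adjusted p under 0.05. All 6 hepatocyte markers passed the filter, with summed levels of 92916 to 97375 CPM in vehicle and 85813 to 96754 CPM in FGF19 libraries, and none was called. Alb made up most of this sum. Among the other markers, Cps1 and Hnf4a had every FGF19 library below every vehicle library (log2 fold changes -0.35 and -0.31), and Tat had a log2 fold change of 0.39. Their part in the results was not tested. The counts of calls over all genes moved with single libraries: 357 genes were lower and 573 higher with all 6, but 926 and 1015 without FGF19 replicate 3 and 91 and 276 without FGF19 replicate 2. In whole liver RNA, fewer cells of a type and less RNA per cell cannot be told apart.

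Of the 10 genes, 4 fell after FGF19 (Socs2, Cish, Igfals and Ghr) and 0 rose, where 2.84% of all genes tested were called lower, 4.56% higher and 7.41% in either direction. At an unadjusted p under 0.01 the counts were again 4 lower and 0 higher, where 4.98% and 6.2% of all genes were. The feedback genes fell most, to 0.230 times the vehicle level for Socs2 and 0.238 times for Cish. Igfals fell to 0.446 times and Ghr to 0.749 times. Stat5a, Stat5b, Igf1, Igfbp1, Igfbp2 and Igfbp4 were not called. The count of 4 lower genes was between 3 and 5 in every alternative run. At an unadjusted p under 0.05 from edgeR, 5 of the 10 were lower and 0 higher, where 11.3% of all genes tested were lower and 11.6% higher. DESeq2, limma-voom and edgeR's likelihood ratio test also called 0 higher. In 5 of the 10 every FGF19 library was below every vehicle library and in 0 every one was above, where 13.8% and 14.5% of all genes tested, and 28.3% in either direction, had such a separation. The median log2 fold change of the 10 was -0.36 and that of all genes tested was 0.00. Because the 10 genes were chosen with earlier results of these data known, these comparisons are descriptions and not tests.

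**Figure D1:**
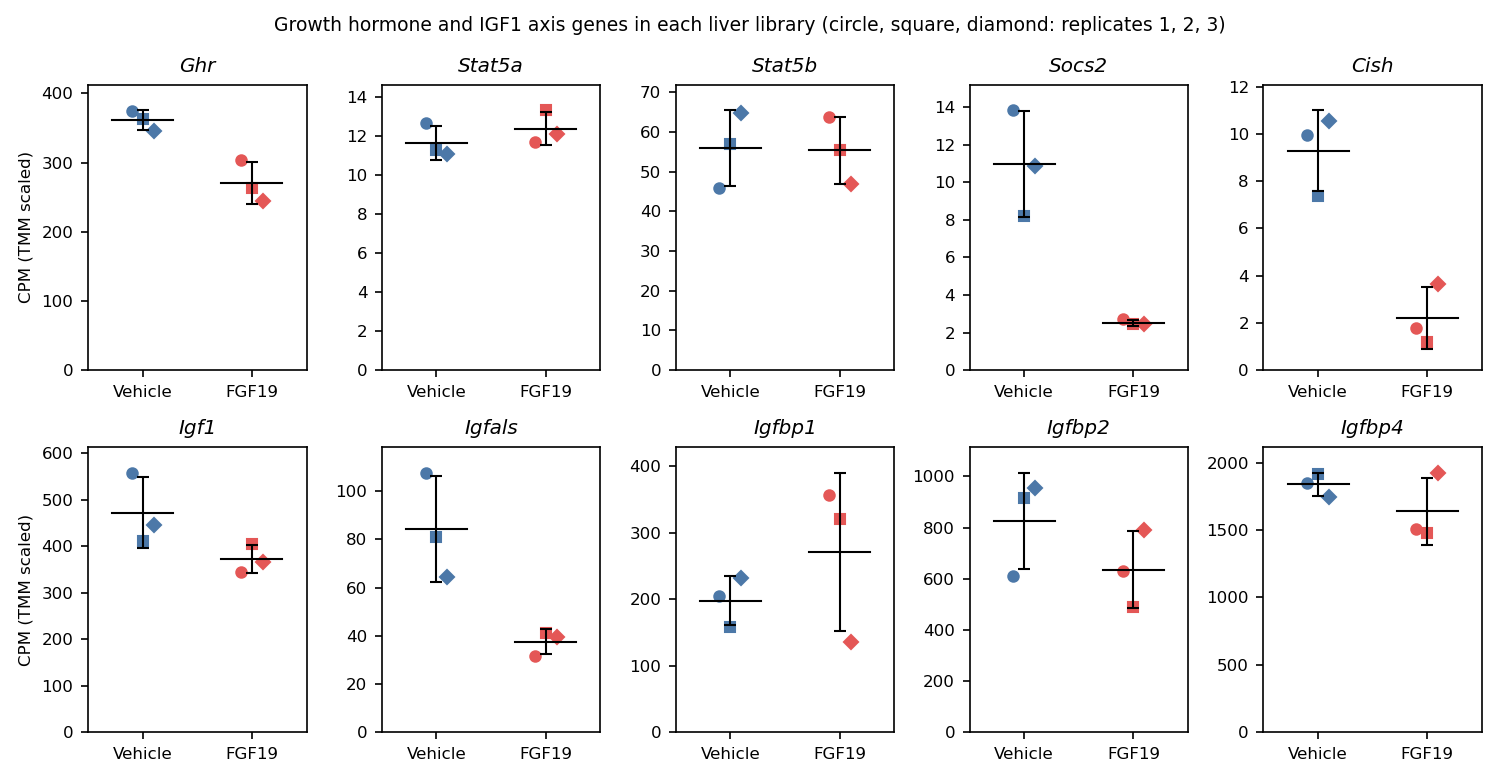
TMM-scaled CPM (vertical axes, from 0) of the 10 genes in the 3 vehicle (blue) and 3 FGF19 (red) libraries. Circles, squares and diamonds are replicates 1, 2 and 3, and bars give the mean and SD. Socs2, Cish, Igfals, Ghr and Igf1 do not overlap between groups, and FGF19 replicate 3 lies apart from the other FGF19 libraries for Igfbp1.

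Socs2, the inhibitor whose loss causes gigantism in mice, lies on chromosome 10 of mm9 from 94874124 to 94879491. It was at 13.8, 8.21 and 10.9 CPM in vehicle replicates 1, 2 and 3 and at 2.70, 2.43 and 2.44 CPM in FGF19 replicates 1, 2 and 3. The FGF19 libraries were tightly grouped and all lay below the lowest vehicle library. Means with SD (n = 3 each) were 11.0 ± 2.80 CPM for vehicle and 2.52 ± 0.149 CPM for FGF19. The log2 fold change was -2.12 (standard error 0.207, 95% interval -2.58 to -1.65, adjusted p = 0.000485, edgeR's quasi-likelihood test). The values rest on 155 to 290 reads in vehicle and 53 to 58 reads in FGF19 libraries. Mates of a read pair were counted separately, so the number of sequenced fragments can be lower. With each library left out in turn, the log2 fold change was between -2.29 and -1.92 and the call was kept in 6 of 6 fits.

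Cish, which encodes the closely related inhibitor CIS, lies on chromosome 9 from 107199020 to 107204292. It was at 9.96, 7.36 and 10.6 CPM in the vehicle libraries and at 1.77, 1.19 and 3.67 CPM in the FGF19 libraries. All FGF19 libraries were below the vehicle libraries, and FGF19 replicate 3 was the highest of them. Means with SD (n = 3 each) were 9.30 ± 1.70 CPM for vehicle and 2.21 ± 1.29 CPM for FGF19. Cish had a log2 fold change of -2.07 (standard error 0.333, 95% interval -2.82 to -1.32, adjusted p = 0.00662, edgeR's quasi-likelihood test). Between 139 and 213 reads stood behind the vehicle values and between 26 and 81 behind the FGF19 values. It was called in 6 of 6 fits that left out a library, with log2 fold changes from -2.64, without FGF19 replicate 3, to -1.76, without FGF19 replicate 2. The ratio of Socs2 to Cish per length was 0.943 ± 0.150 (SD, n = 3) in vehicle and 1.13 ± 0.555 (SD, n = 3) in FGF19 libraries, so its means differed by less than the spread between the FGF19 libraries.

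Upstream of these inhibitors, Ghr lies on chromosome 15 from 3267760 to 3533230. It was at 375, 363 and 346 CPM in the vehicle libraries and at 304, 264 and 244 CPM in the FGF19 libraries. The groups did not overlap. Means with SD (n = 3 each) were 361 ± 14.3 CPM for vehicle and 271 ± 30.5 CPM for FGF19. The log2 fold change was -0.42 (standard error 0.0997, 95% interval -0.64 to -0.19, adjusted p = 0.0365, edgeR's quasi-likelihood test). This call was close to the threshold and was lost in 4 of 6 fits that left out a library. The adjusted p in edgeR's quasi-likelihood test was 0.107, 0.0898 and 0.105 without vehicle replicates 1, 2 and 3 and 0.141 without FGF19 replicate 2, while the log2 fold change stayed between -0.51 and -0.34.

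The STAT5 genes lie side by side on chromosome 11, Stat5b from 100642045 to 100711899 and Stat5a from 100720665 to 100746483. Stat5b, the main STAT5 of hepatocytes, was at 45.8, 57.0 and 64.8 CPM with vehicle and at 63.8, 55.4 and 47.0 CPM with FGF19, so the ranges largely coincided. Its log2 fold change was -0.01 (95% interval -0.34 to 0.32, adjusted p = 0.973, edgeR's quasi-likelihood test). Stat5a was at 12.7, 11.3 and 11.1 CPM with vehicle and at 11.7, 13.3 and 12.1 CPM with FGF19, again with overlapping ranges. Its log2 fold change was 0.09 (95% interval -0.18 to 0.35, adjusted p = 0.723, edgeR's quasi-likelihood test). The pair are near-identical copies in part, and 85 windows of 100 bases in the exons of each, 2.40% for Stat5b and 4.27% for Stat5a, also occur in exons of another listed gene. How many reads of the pair these windows affected was not measured. The other 8 genes had 0 such windows, and none of the 10 shared an exon position with another gene.

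Igf1, the growth hormone target that carries its growth effect in blood, lies on chromosome 10 from 87321801 to 87399792. It was at 558, 412 and 446 CPM in the vehicle libraries and at 346, 406 and 367 CPM in the FGF19 libraries. The groups did not overlap, but vehicle replicate 2 and FGF19 replicate 2 lay close together. Means with SD (n = 3 each) were 472 ± 76.6 CPM for vehicle and 373 ± 30.6 CPM for FGF19. Its log2 fold change was -0.34 (standard error 0.124, 95% interval -0.62 to -0.06). Igf1 had an unadjusted p of 0.0214 in edgeR and an adjusted p of 0.135, so it was not called. The log2 fold change was between -0.43 and -0.20 with each library left out, with adjusted p in edgeR's quasi-likelihood test between 0.0976 and 0.358.

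Igfals, on chromosome 17 from 25015715 to 25018953, encodes the acid-labile subunit, which the liver makes under growth hormone. It was at 108, 80.8 and 64.4 CPM in the vehicle libraries and at 31.7, 41.3 and 39.7 CPM in the FGF19 libraries. Every FGF19 library was below every vehicle library, and the vehicle libraries varied more among themselves. Means with SD (n = 3 each) were 84.3 ± 21.8 CPM for vehicle and 37.6 ± 5.13 CPM for FGF19. Igfals fell by 1.17 on the log2 scale (standard error 0.179, 95% interval -1.57 to -0.76, adjusted p = 0.00506, edgeR's quasi-likelihood test), and the call was kept in 6 of 6 fits that left out a library. Per length, there were 0.658 ± 0.107 (SD, n = 3) Igfals reads for each Igf1 read with vehicle and 0.372 ± 0.0305 (SD, n = 3) with FGF19. That ratio was between 0.535 and 0.727 in the vehicle and between 0.340 and 0.400 in the FGF19 libraries, with no overlap. With 3 libraries a group, the smallest two-sided p of an exact permutation test is 0.1.

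**Figure D2:**
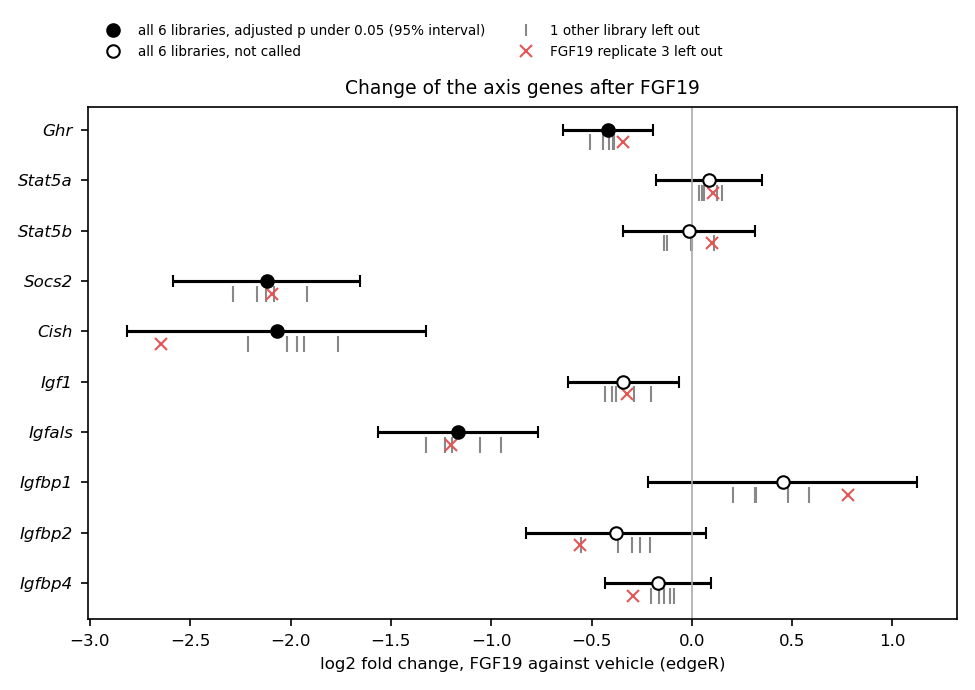
Log2 fold change of FGF19 against vehicle (horizontal axis, edgeR) for the 10 genes, with unadjusted 95% intervals. Filled circles had an adjusted p under 0.05, ticks are fits with 1 library left out and red crosses the fit without FGF19 replicate 3. Socs2, Cish, Igfals and Ghr are filled, and the crosses lie away from the circles for Cish (-2.64) and Igfbp1 (0.78).

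The binding protein genes were not called. Igfbp1, on chromosome 11 from 7097790 to 7102549, encodes the binding protein that changes fastest with feeding and insulin. It was at 205, 158 and 231 CPM with vehicle and at 357, 321 and 136 CPM with FGF19. FGF19 replicates 1 and 2 were above every vehicle library, and FGF19 replicate 3 was below every one. The log2 fold change was 0.45 (95% interval -0.22 to 1.12, adjusted p = 0.417, edgeR's quasi-likelihood test). Without FGF19 replicate 3 it was 0.78 (adjusted p = 0.0105, edgeR's quasi-likelihood test), and in the other 5 such fits it was not called. The part of that library in the result was not tested further.

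Igfbp2, a carrier that rises in fasting and growth hormone deficiency, lies on chromosome 1 from 72871054 to 72899045. It was at 610.0, 914 and 955 CPM with vehicle and at 631, 489 and 790.1 CPM with FGF19, with overlapping groups. Its log2 fold change was -0.38 (95% interval -0.83 to 0.07, adjusted p = 0.302, edgeR's quasi-likelihood test). With a library left out it ranged from -0.56, without FGF19 replicate 3, to -0.21, without FGF19 replicate 2, and was not called in any of these fits. Igfbp4, on chromosome 11 from 98902574 to 98913957, encodes a carrier that mostly inhibits IGF action. It was at 1852, 1916 and 1748 CPM with vehicle and at 1509, 1481 and 1924 CPM with FGF19, where FGF19 replicate 3 was the highest library of all 6. Its log2 fold change was -0.17 (95% interval -0.43 to 0.10, adjusted p = 0.452, edgeR's quasi-likelihood test). Without FGF19 replicate 3 it was -0.29 (adjusted p = 0.0397, edgeR's quasi-likelihood test), and in the other 5 such fits Igfbp4 was not called.

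Per kilobase of exon, the transcripts ranked in the vehicle libraries as Igfbp4 (mean 889.9 CPM per kb), Igfbp2 (623), Igfbp1 (130.2), Ghr (81.6), Igf1 (60.4), Igfals (39.9), Stat5b (10.3), Cish (4.30), Socs2 (4.06) and Stat5a (3.00). Neighbours in this order did not overlap, except Cish with Socs2 and Socs2 with Stat5a. With FGF19 the first 7 kept their places without overlap, and Stat5a (3.19) stood above Cish (1.02) and Socs2 (0.936), which overlapped each other. The inhibitor transcripts were thus level with or above Stat5a in vehicle libraries and below it in every FGF19 library.

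Of the summed Igfbp1 to Igfbp7 transcripts per length, Igfbp4 made up 52.2 ± 5.27% (SD, n = 3) in vehicle and 52.2 ± 3.24% (SD, n = 3) in FGF19 libraries. Igfbp2 made up 36.0 ± 5.62% and 31.4 ± 4.18% (SD, n = 3 each), and its groups overlapped. Igfbp1 made up 8.68%, 5.77% and 8.51% in the vehicle libraries and 15.7%, 15.5% and 5.30% in the FGF19 libraries, with replicate 3 the lowest of all 6. Igfbp3, the main carrier of IGF1 in blood, made up only 0.687 ± 0.0904% and 0.339 ± 0.0656% (SD, n = 3 each).

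**Figure D3:**
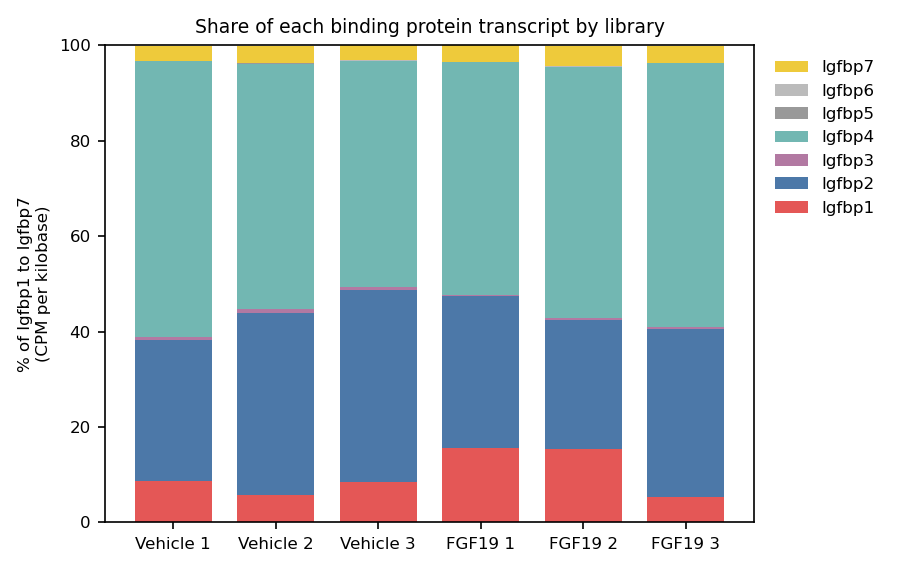
Percent of the summed Igfbp1 to Igfbp7 transcripts (vertical axis, CPM per kilobase) in each of the 6 libraries. Igfbp4 is the largest part throughout, between 47.3% and 57.8%, and the Igfbp1 part is larger in FGF19 replicates 1 and 2 (15.7% and 15.5%) than in the other libraries.

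Among 20 other growth hormone signalling genes, 19 were tested, 3 rose and 1 fell, and 15 were not called. Of all genes tested, 4.56% were called higher and 2.84% lower. Onecut1, a liver transcription factor that growth hormone induces, was at a mean of 5.79 ± 1.94 CPM (SD, n = 3) with vehicle, where replicate 2 was lowest at 3.55 CPM, and at 2.42, 1.75 and 2.40 CPM with FGF19 (log2 fold change -1.40, adjusted p = 0.0159, edgeR's quasi-likelihood test). All FGF19 libraries were lower, and the call was lost without vehicle replicate 1, vehicle replicate 3 or FGF19 replicate 2, with log2 fold changes of -1.27, -1.25 and -1.26. Stat3, which mainly serves interleukin-6, and Shc1, an adaptor to the MAP kinase route, rose by 0.49 and 0.47 (adjusted p = 0.0172 and 0.0132, edgeR's quasi-likelihood test). The call of Stat3 was lost without vehicle replicates 1 or 3 or FGF19 replicates 1 or 2, and that of Shc1 without vehicle replicates 1 or 2 or FGF19 replicate 2. Log2 fold changes in those fits were 0.42 to 0.54 and 0.42 to 0.45. Jak2, the kinase on the receptor, was at 16.9, 18.9 and 19.6 CPM with vehicle and 19.5, 18.0 and 13.8 CPM with FGF19 and was not called (log2 fold change -0.11).

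The other SOCS genes gave no call. Socs3, the inhibitor induced by interleukin-6, was at 5.19, 15.3 and 12.3 CPM with vehicle and 13.2, 11.8 and 16.2 CPM with FGF19, with overlapping groups (log2 fold change 0.34, adjusted p = 0.579, edgeR's quasi-likelihood test). Socs4, Socs5, Socs6 and Socs7 had log2 fold changes of 0.13, 0.21, 0.16 and -0.02. Socs1, an inhibitor of interferon signalling, was under 1 CPM in every library and was not tested.

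Among 16 other IGF system genes, 12 were tested and 1, Igfbp3, was called, where 7.41% of all genes tested were called in either direction. Igfbp3 was at 23.2, 34.7 and 28.7 CPM with vehicle and at 9.62, 12.6 and 15.5 CPM with FGF19, with no overlap. It fell by 1.20 on the log2 scale (standard error 0.191, adjusted p = 0.00614, edgeR's quasi-likelihood test), in 6 of 6 fits that left out a library. In liver Igfbp3 comes mostly from cells other than hepatocytes. The summed endothelial markers were at 195 to 212 CPM with vehicle and 188 to 203 CPM with FGF19, with 0 of 5 called. Of these, Clec4g had every FGF19 library below every vehicle library (log2 fold change -0.38), and the other 4 overlapped, with log2 fold changes of -0.17 for Kdr, -0.01 for Stab2, 0.14 for Pecam1 and 0.20 for Lyve1. The summed Kupffer cell markers were at 141 to 178 and 145 to 173 CPM, with 2 of 5 higher (Marco and Cd68). The other 3 Kupffer cell markers were not called and had log2 fold changes below 0, with -0.29 for Clec4f, -0.22 for Cd5l and -0.54 for Vsig4, whose FGF19 libraries were all below its vehicle libraries. The summed stellate cell markers were at 209 to 282 and 192 to 238 CPM, with 1 of 5 lower (Colec11), and Reln, not called, also had all FGF19 libraries below (log2 fold change -0.46). The other 3 stellate cell markers were not called and overlapped between groups, with log2 fold changes of -0.17 for Dcn, 0.33 for Lrat and 0.36 for Hgf. No marker of these 3 lists was at 0 in every library. The summed cholangiocyte markers were at 71.8 to 89.0 CPM with vehicle and 55.7 to 86.0 CPM with FGF19, with 0 of 5 called. Log2 fold changes were below 0 in 4 of these and above 0 in 1, Sox9 (0.47). Summed neutrophil markers were at 1.29 to 2.13 and 4.14 to 5.83 CPM. Of these 5 markers 2 were tested, and S100a9 was higher while Mmp9 was not called (log2 fold change 0.67). S100a9 was at 0.238 and 0.212 CPM in vehicle replicates 1 and 2, where 3 counts correspond to 0.143 and 0.159 CPM. The call of S100a9 was lost in 4 of 6 fits that left out a library, those without vehicle replicates 1 or 2 or FGF19 replicates 1 or 2, with log2 fold changes of 1.81 to 2.33. The part of these cells in the results was not tested. The receptor genes Igf1r, Insr and Igf2r and the adaptor genes Irs1 and Irs2 were not called, with log2 fold changes between -0.19 and 0.00.

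Growth hormone pulses in male mice also set the sex-biased genes of the liver. Of 15 male-biased genes, all 15 were tested and 0 were called, with 1 higher and 4 lower at an unadjusted p under 0.05, where 11.6% and 11.3% of all genes tested were. DESeq2 called 1 higher and 2 lower, edgeR's likelihood ratio test 1 and 1, and limma-voom 0 and 0. Without FGF19 replicate 3 the quasi-likelihood test called 4 lower. The median log2 fold change was -0.29, and the widest values were those of Selenbp2 (-0.68, adjusted p = 0.410) and Bcl6 (0.65, adjusted p = 0.285), a repressor that growth hormone lowers, both from edgeR's quasi-likelihood test. Bcl6 was at 22.2, 14.0 and 8.88 CPM with vehicle and 21.5, 33.9 and 15.7 CPM with FGF19, with overlapping groups. Mup, Cyp2d and Cyp4a genes have near-identical copies, and their counts are uncertain.

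Of 15 female-biased genes only 6 passed the filter, so this count speaks for those 6 alone. Of these 6, 2 fell and 0 rose, where 2.84% of all genes tested were called lower and 4.56% higher. At an unadjusted p under 0.05 in the quasi-likelihood test of edgeR, 2 were lower and 0 higher, where 11.3% and 11.6% of all genes were. The count called lower at an adjusted p under 0.05 was 1 with limma-voom and in the fits without each single library other than vehicle replicate 2. Fmo2, a flavin monooxygenase, was among those that fell. It was at 45.1, 44.1 and 36.5 CPM with vehicle and at 11.0, 12.4 and 11.9 CPM with FGF19 (log2 fold change -1.83, adjusted p = 3.38e-05, edgeR's quasi-likelihood test), in 6 of 6 fits that left out a library.

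Because Igfbp1 and Igf1 also follow fasting and insulin, 12 genes of that response were examined. All 12 were tested, 3 rose and 0 fell, where 4.56% of all genes tested were called higher and 2.84% lower. None of the 12 was lower at an unadjusted p under 0.05, where 11.3% of all genes were, and DESeq2, limma-voom and edgeR's likelihood ratio test called 0 lower. Trib1, a regulator of hepatic lipid synthesis, was at 54.6, 50.9 and 44.1 CPM with vehicle and 84.6, 88.7 and 73.4 CPM with FGF19 (log2 fold change 0.72, adjusted p = 0.00497, edgeR's quasi-likelihood test). It was called in 6 of 6 fits that left out a library. Fgf21, a fasting hormone that lowers hepatic growth hormone signalling, was at 7.95, 5.72 and 5.76 CPM with vehicle and 19.2, 16.4 and 8.37 CPM with FGF19. Pdk4, which spares glucose in fasting, was at 10.8, 12.6 and 12.1 CPM with vehicle and 25.5, 20.1 and 15.2 CPM with FGF19. In both, every FGF19 library was above every vehicle library, with replicate 3 the nearest. The log2 fold changes were 1.18 and 0.78, with adjusted p of 0.0361 and 0.0292 in edgeR's quasi-likelihood test. Of the 6 fits that left out a library, both calls were kept in the one without FGF19 replicate 3, and in the other 5 the log2 fold changes were 0.93 to 1.35 and 0.58 to 0.83. The call of Fgf21 was also lost without TMM scaling (adjusted p = 0.0525, edgeR) and with limma-voom (adjusted p = 0.0732). As for Igfbp1, FGF19 replicate 3 was the lowest FGF19 library in 11 of these 12 genes, where it was the lowest in 39.3% of all genes tested; this was noticed after the values were seen and was not tested.

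**Figure D4:**
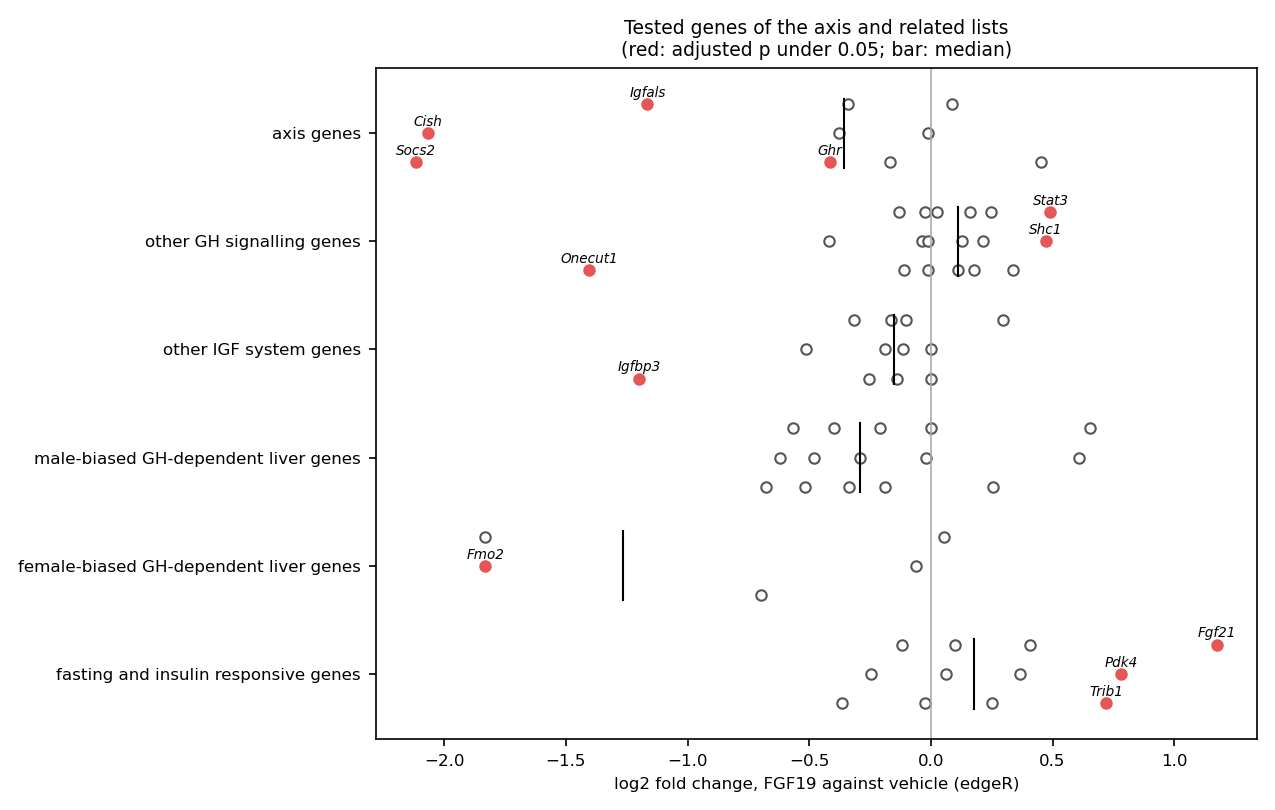
Log2 fold change of FGF19 against vehicle (horizontal axis, edgeR) of tested genes of the axis and of 5 related lists, where 2 called genes are not drawn. Red points had an adjusted p under 0.05 and are named, open points did not, and bars are medians over all tested genes of a list. Of the axis 4 of 10 are red and lower, and none of the 15 male-biased genes is red.

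The genes whose levels followed Socs2 most closely over the 6 libraries, among 7461 genes outside these lists with a mean of at least 10 CPM, included Eny2, Fmo1, Hadh and Akr1c19. Pearson's r of log2 CPM was 0.995 to 0.997, which describes 6 libraries in 2 groups and mostly follows the difference between them. Akr1c19 was at 59.2 ± 14.0 CPM with vehicle and 22.7 ± 1.85 CPM with FGF19 (SD, n = 3 each). Pearson's r does not depend on the size of a change. The log2 fold changes of Eny2, Hadh, Fmo1 and Akr1c19 were -0.20, -0.30, -0.60 and -1.38, against -2.12 for Socs2. Eny2 and Hadh were not called. For Igf1 the closest were Sucla2, Prkrir, 2700078E11Rik, Cbr1 and Tbc1d2b, with r of 0.982 to 0.989.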

How the data were processed

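Liver RNA of 3 vehicle-treated and 3 FGF19-treated mice was sequenced as paired 100-base reads. Per the file headers, the deposited values are raw counts of reads on exons of mm9 genes, made by the authors with featureCounts 1.5.2 from STAR alignments. Strand was not used, mates were counted separately and multi-mapping reads were left out. The submitters' processing notes list STAR 2.5.3a and Trimmomatic 0.36. The authors' own table of fold changes and p-values was not used.

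The analysis ran in edgeR 4.0.16 under R 4.3.3. The function filterByExpr left 12559 of 23284 genes, which were scaled by TMM and compared with the quasi-likelihood test without covariates. The standard error is the log2 fold change divided by the root of F. The study states an edgeR pipeline and p under 0.01; calls here use an adjusted p under 0.05, with the other as an alternative. The depth is 18994654 to 22920056 reads, and 3 counts correspond to 0.136 to 0.159 CPM, which covers counting error only. Alternatives were DESeq2 1.42.0, limma-voom (limma 3.58.1), the likelihood ratio test, no TMM, other filters, the replicate block and each library left out. The procedures were tested on simulated data. The members and lists were chosen with earlier results of these data known. By rule, all 10 members were named, with the called genes of each other list (at most 6) or else the 2 with the largest change, and the 5 genes most like Socs2 and Igf1. Jak2, Socs1, Socs3 to Socs7, the receptor and adaptor genes and the cell markers were named outside that rule, after their values were seen. Genes that meet this rule but are left out of the text are not reported here.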

Additional observations from a re-analysis of the deposited data

How the results depend on the processing

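Socs2, Cish and Igfals stayed lower and called in all 13 other fits, and Igf1 and Igfbp2 were called in none. The threshold counts for all genes were less stable. With each library left out, 236 to 1015 genes were higher and 91 to 926 lower. The likelihood ratio test called 579 lower, and an unadjusted p under 0.01 called 626 lower. Of the 10 axis genes, 0 to 1 were higher with a library left out, the 1 being Igfbp1 without FGF19 replicate 3. In the same fits 1 to 3 other growth hormone signalling genes were higher and 0 to 1 lower, 0 to 4 male-biased genes were lower, 1 to 2 female-biased genes were lower, and 1 to 4 fasting genes were higher. Male-biased genes gave 1 higher and 2 lower with DESeq2, 1 and 1 with the likelihood ratio test and with p under 0.01, and 1 lower without TMM scaling or without the filter. Female-biased genes gave 1 lower with limma-voom and with at least 1 CPM in every library. Stat5b, never called, had log2 fold changes from -0.14 to 0.11 with a library left out, against -0.01. The causes were not tested. At this depth Cish rests on as few as 26 reads in a library, with mates counted separately.

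The replicate numbers gave no sign of pairing. After the mean of each group was removed from every gene, same-numbered libraries had correlations of -0.03, -0.18 and -0.18. Differently numbered ones had correlations of -0.13 to 0.23. With 3 libraries a group, these values cannot show that the numbers do not pair the libraries. With the replicate block, 370 genes were higher and 164 lower, 1 other growth hormone signalling gene was higher, and Ghr had a log2 fold change of -0.42 with an adjusted p of 0.0696 in edgeR, so that its call was lost. The calls of Stat3, Shc1 and Pdk4 were lost too, with adjusted p of 0.0595, 0.0550 and 0.0570 in edgeR.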
